A study of Mus musculus with 15 samples.

Results

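Switching on SPIC with doxycycline was compared with no doxycycline in Rag -/- Abelson cells, which are mouse B-cell progenitors (pre-B cells) transformed by the v-Abl kinase. Of the 15 libraries of the series, 6 made up the comparison, 3 with doxycycline (Rag_SPIC_DOX) and 3 without (Rag_SPIC_noDOX). Both groups carried a tetracycline-inducible SPIC construct, had no shRNA, were between passages 10 and 15, and were held for 48 h in imatinib, an inhibitor of v-Abl that stops the cycling of such cells. The labels of the 2 groups differ only in the agent, DOX or none. They name neither the deleted Rag gene nor a dose or duration of doxycycline, and do not say whether the line was 1 clone or whether the 3 libraries of a group came from separate cultures. A p-value therefore weighs a difference against the spread of these libraries, which may be technical. No group received doxycycline without the construct, so the drug and the protein cannot be told apart.

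SPIC belongs to the ETS family of DNA-binding factors, together with its close relatives PU.1 (encoded by Spi1) and SPIB. PU.1 and SPIB drive genes of B cells and myeloid cells by binding purine-rich sites with a GGAA core, and SPIC can bind the same sites. In macrophages SPIC is known for the handling of heme and iron, and in pre-B cells it is known for opposing PU.1 after DNA breaks made by the RAG nuclease.

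Expression was measured as log2 CPM (log2 of the read count scaled to library size, with 0.5 reads added to each count) for 11551 genes. These are the genes the authors had called in any of their own comparisons, among them the comparison of these groups. The words all genes, below, mean this selected set. The effective library sizes were 17.8 to 18.1 M (mega) reads without doxycycline and 21.6 to 23.2 M reads with it. Of 14 markers of B-cell progenitors all 14 were measured and all 14 were at 5 log2 CPM or more in each of the 6 libraries.

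Spic rose about 10.4-fold. Its level without doxycycline was 0.87, 0.18 and 1.41 log2 CPM (32, 20 and 47 reads), and with doxycycline 3.72, 4.59 and 4.31 (305, 531 and 428 reads). The groups did not overlap, and the lowest value with doxycycline was in replicate 1. The log2 fold change was 3.38 (SE 0.35, n = 3 per group, limma adjusted p = 0.00607). Reads from the construct and from the endogenous gene are not told apart in such a count. Without Rag_SPIC_noDOX replicate 1 the limma adjusted p was 0.0694, and in the other 5 leave-one-out fits it was 0.000147 to 0.0493.

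Spib, the gene of the related factor SPIB, fell in all 3 doxycycline libraries. It stood at 7.21, 7.07 and 7.12 log2 CPM without doxycycline and at 5.54, 6.0 and 5.84 with it, so that no library with the drug came near those without. The log2 fold change was -1.34 (SE 0.12, limma adjusted p = 0.00395). The limma adjusted p of Spib was 0.0518 and 0.0507 without Rag_SPIC_noDOX replicates 1 and 3, and 2.1e-05 to 0.0435 in the other 4 leave-one-out fits. Fewer cells of a kind and less RNA per cell cannot be told apart in these bulk samples, here and for the genes that follow. Spi1, the gene of PU.1, lay at 7.07, 7.17 and 6.98 against 7.01, 7.04 and 7.04, with overlapping groups and a log2 fold change of -0.04 (limma adjusted p = 0.696). Bclaf1, whose product is known as a transcription and splicing regulator, was at 7.70 ± 0.07 and 7.73 ± 0.04 (SD, n = 3 each; limma adjusted p = 0.799). Rag1 and Rag2, the genes of the recombinase that cuts antigen-receptor loci, had log2 fold changes of 0.42 and 0.46 and did not pass (limma adjusted p = 0.147 and 0.082). Rag1 and Rag2 did pass without Rag_SPIC_DOX replicate 1 (limma adjusted p = 0.0177 and 0.0109). They also passed with library weights (log2 fold changes 0.48 and 0.55), and in none of the other alternative fits. Those weights were 81.1 for Rag_SPIC_DOX replicate 3 and 0.122 and 0.124 for replicates 1 and 2. The weighted fit thus rested almost wholly on 1 doxycycline library and hid the spread of that group. Rag1 in the doxycycline libraries was at 10.13, 10.84 and 10.56, and the first of these lay within the range of 10.05 to 10.17 seen without the drug.

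**Figure D1:**
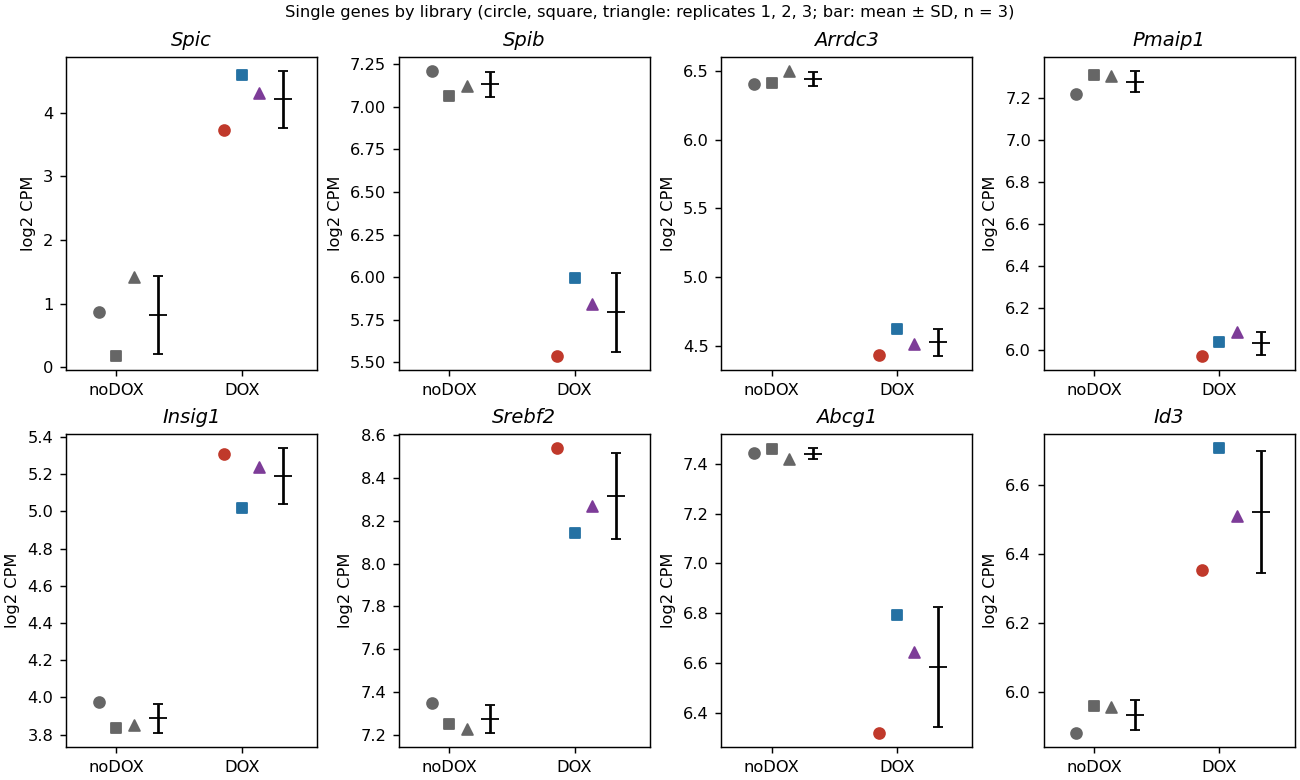
Level in log2 CPM (vertical axis, its own scale in each panel) of 8 genes in each library without (noDOX) and with (DOX) doxycycline, with the mean and SD beside the points. Spic, Insig1, Srebf2 and Id3 stood higher in all 3 doxycycline libraries and Spib, Arrdc3, Pmaip1 and Abcg1 lower, and the points of Arrdc3 and Pmaip1 lie close together within each group.

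Beyond single genes, the 3 doxycycline libraries differed strongly from one another. The number of genes far above the level without the drug varied more between them than the number far below. Similar numbers need not be the same genes, which was not counted. Myc, for example, differed from that level by 2.46 log2 units in replicate 1 and by -1.84 in replicate 2. Set against the mean of the 3 libraries without doxycycline, 811 genes (7.02% of all) were more than 1 log2 unit higher in replicate 1, 29 (0.251%) in replicate 2 and 311 (2.69%) in replicate 3. The numbers more than 1 log2 unit lower were 572 (4.95%), 564 (4.88%) and 566 (4.9%). With each library centred on its median the higher counts were 655, 30 and 302 and the lower ones 802, 553 and 592, so that replicate 1 then had more genes below than above. A single library has no replicate, so these counts carry no test. The median range of a gene over 3 libraries was 0.34 log2 units with doxycycline and 0.17 without, and 1339 and 300 genes spanned more than 1 log2 unit.

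**Figure D2:**
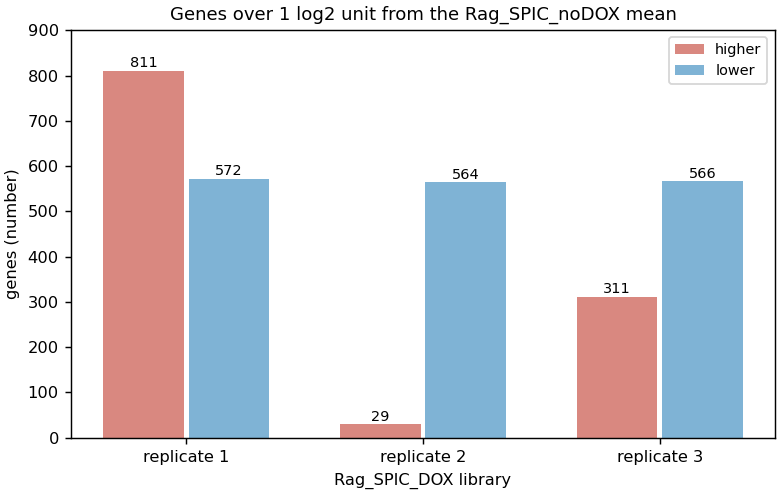
Number of genes (vertical axis) whose log2 CPM in 1 doxycycline library was more than 1 log2 unit above or below the mean of the 3 libraries without doxycycline. The lower counts stand between 564 and 572 (553 and 802 in centred libraries), and the higher counts are 811, 29 and 311.

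The 10 genes of above-median expression that spanned the widest range over the doxycycline libraries were Myc, Ldha, Ccnd2, Eno1, Cd74, Mif, Aldoa, Dusp7, Pkm and Mthfd1l. They were picked for that range, and their values are a description. Each was highest in replicate 1, next in replicate 3 and lowest in replicate 2. Myc, the driver of growth genes, was at 5.77, 5.41 and 5.60 log2 CPM without doxycycline and at 8.06, 3.76 and 6.83 with it, so that replicate 2 lay below and the other two above all libraries without the drug. Ccnd2, a D-type cyclin that starts the cell cycle, followed the same order at 7.91, 4.45 and 6.77, against 5.38 to 5.54 without the drug. Ldha, the enzyme that makes lactate, was at 10.08, 6.59 and 9.03 against 7.64 to 7.79. Cd74, the invariant chain of MHC class II molecules, was at 9.55, 6.56 and 8.57 against 6.94 to 6.99. Aldoa, an enzyme of glycolysis, stood at 10.01, 7.15 and 9.06 against 8.96 to 9.30, where replicate 3 did not leave the range without doxycycline.

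**Figure D3:**
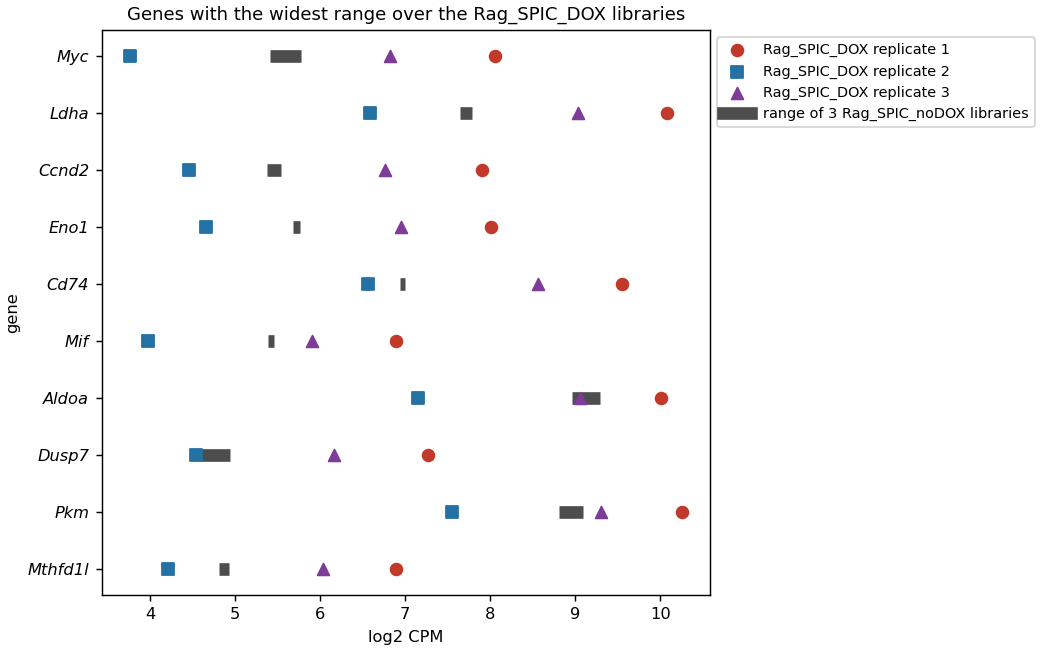
Level in log2 CPM (horizontal axis) of the 10 genes with the widest range over the doxycycline libraries, with a dark bar for the range of the 3 libraries without the drug. For every gene shown replicate 1 (circle) is to the right, replicate 2 (square) to the left and replicate 3 (triangle) between them, Myc running from 3.76 to 8.06.

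Over all 6 libraries 1367 of 11551 genes changed (limma, adjusted p below 0.05, 11.8% of genes), of which 365 rose (3.16%) and 1002 fell (8.67%). With each library centred on its median the calls were 194 higher and 963 lower. Among the changed genes 20 had risen and 299 had fallen by 1 log2 unit or more, and the median log2 fold change of all genes was 0.005. Groups that did not overlap were found for 4704 genes (40.7%), 2080 with doxycycline higher (18.0%) and 2624 with it lower (22.7%), and for all 1367 changed genes. The count of changed genes depended on single libraries. It was 12, 401 and 15 without Rag_SPIC_noDOX replicates 1, 2 and 3, and 1637, 4569 and 58 without Rag_SPIC_DOX replicates 1, 2 and 3. In the same order, 1, 35, 2, 500, 2309 and 3 genes were called higher and 11, 366, 13, 1137, 2260 and 55 lower. The counts of list members given below for these fits are to be read beside these totals of 11551 genes. An unadjusted limma p below 0.05 was reached by 3953 of the 11551 genes, in either direction. Every count of list members given below at that unadjusted level is to be read beside this number, and not beside the shares of changed genes.

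Among changed genes of above-median expression, those that fell most in whichever doxycycline library lay nearest to the level without the drug were Arrdc3, Gbp4, Rapgef3, Epha2, Micall2, Ppp1r15a, Scn8a, Pmaip1, Dpysl3 and Spib. Arrdc3, an arrestin-like adaptor and FOXO target, was at 6.41, 6.41 and 6.50 log2 CPM without doxycycline and at 4.43, 4.62 and 4.51 with it, a gap many times wider than either group. Its log2 fold change was -1.92 (SE 0.08, limma adjusted p = 0.000389). Gbp4, an interferon-induced guanylate-binding protein, went from 6.53, 6.35 and 6.54 to 4.55, 4.85 and 4.66, a log2 fold change of -1.79 (SE 0.10, limma adjusted p = 0.00114). Pmaip1, which encodes the cell-death protein NOXA, went from 7.22, 7.31 and 7.30 to 5.97, 6.04 and 6.09, a log2 fold change of -1.24 (SE 0.07, limma adjusted p = 0.00109). Ppp1r15a, which encodes the stress phosphatase subunit GADD34, fell by 1.32 on the log2 scale, with values of 5.42, 5.55 and 5.56 in the doxycycline libraries against 6.73 to 6.96. For these 4 genes the doxycycline libraries spanned 0.11 to 0.30 log2 units. Epha2, a receptor tyrosine kinase, and Rapgef3, an exchange factor for RAP1 that responds to cyclic AMP, fell by 1.45 and 1.51. Micall2, Scn8a (a sodium channel) and Dpysl3 fell by 1.65, 1.63 and 1.70, each less in replicate 2 than in the other two. All 10 kept their call without Rag_SPIC_noDOX replicate 2 and without Rag_SPIC_DOX replicate 1 or 2, 8 without Rag_SPIC_DOX replicate 3, and 5 without Rag_SPIC_noDOX replicate 1 or 3.

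By the same rule the 10 risen genes included Srebf2, Ufc1, Ints14, Adi1, Panx1, Vac14, Scpep1, Marcks and Rabif. Their shifts were smaller, with log2 fold changes of 0.48 for Rabif to 1.04 for Srebf2. Ufc1, the conjugating enzyme of the ubiquitin-like modifier UFM1, was even across replicates, at 5.67, 5.71 and 5.68 log2 CPM with doxycycline against 5.02, 5.26 and 5.15 without it. Panx1, a membrane channel, and Marcks, a substrate of protein kinase C, rose by 0.56 and 0.66. Ints14, Adi1, Vac14, Scpep1 and Rabif rose by 0.48 to 0.59. Of the 10 genes, 9 still passed without Rag_SPIC_noDOX replicate 2, 10 without Rag_SPIC_DOX replicate 1 or 2, 1 without Rag_SPIC_DOX replicate 3, and 0 without Rag_SPIC_noDOX replicate 1 or 3, although all 10 kept an unadjusted limma p below 0.05 in each of these fits.

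Of 28 pathway lists, the enzymes of cholesterol synthesis held the most genes that rose. Cells make cholesterol from acetyl-CoA through the mevalonate pathway, and when membranes run short the factor SREBP2 (the product of Srebf2), held back by INSIG1, turns on the enzymes. Of 19 enzymes measured, 7 rose and 0 fell, against 3.16% and 8.67% of all genes, with a median log2 fold change of 0.74. An unadjusted limma p below 0.05 was reached by 11 higher enzymes and 1 lower one, and by 3953 of all 11551 genes in either direction. Of 16 genes of sterol regulation and transport, 4 rose, among them Insig1, Srebf2 and Stard4, and 1 fell (Abcg1).

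Promoter sequence was looked up for the sterol genes in the RefSeq table of mouse promoters (build GRCm38.p6), which held 26 of the 35 measured and 6 of the 12 changed. These 6 all rose. A stretch around a CCAAT box, the site of the factor NF-Y that works beside SREBP2 on many sterol genes, is shown for 4 of them. Those of Ebp and Nsdhl are not printed. The gene's own strand is printed 5′ to 3′, and capitals mark CCAAT or its reverse complement ATTGG.
Srebf2, chr15:82147104-82147168, plus strand: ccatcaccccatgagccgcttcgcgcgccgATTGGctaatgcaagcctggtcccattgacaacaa
Insig1, chr5:28071166-28071230, plus strand: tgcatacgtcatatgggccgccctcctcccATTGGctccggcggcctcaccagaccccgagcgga
Cyp51, chr5:4104698-4104756, minus strand: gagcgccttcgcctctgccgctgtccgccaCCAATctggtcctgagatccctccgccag
Msmo1, chr8:64733640-64733704, minus strand: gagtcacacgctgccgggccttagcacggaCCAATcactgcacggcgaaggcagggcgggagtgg
These motifs lie 135, 216, 29 and 96 bases before the start site. In the 250 bases before the start, on either strand, CCAAT was found in all 6 changed genes (Cyp51, Ebp, Insig1, Msmo1, Nsdhl and Srebf2), in 13 of the 20 sterol genes that did not pass and in 10133 of the 27025 genes of the table. Counted by promoter, since a gene can have several, it was in 6 of 6, in 14 of 29 (48.3%) and in 33.8% of all 32851. The letters TCACNCCAC, a core of the sterol regulatory element, occurred in 0 of the 6, in 0 of the other 20 and in 1.05% of all promoters. Variants of these letters were not searched, so this count cannot show that the element is absent. The E-box CACGTG occurred in 1 of the 6, in 5 of the other 20 (17.2% of their promoters) and in 6.02% of all promoters. A match is a description of letters and not of a bound site.

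Insig1, the anchor of SREBP2, was at 3.97, 3.83 and 3.85 log2 CPM without doxycycline and at 5.31, 5.02 and 5.24 with it, where the drug-treated libraries were nearly level. Srebf2, the gene of the regulator itself, was at 7.35, 7.25 and 7.23 against 8.54, 8.14 and 8.27. The log2 fold changes of Insig1 and Srebf2 were 1.30 (SE 0.11, limma adjusted p = 0.00383) and 1.04 (SE 0.11, limma adjusted p = 0.00607).

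The enzymes were less even across replicates than these regulators. Cyp51, an oxidase of lanosterol, was at 3.91, 4.12 and 4.22 log2 CPM without doxycycline and at 6.46, 4.94 and 5.78 with it (log2 fold change 1.64, limma adjusted p = 0.028). Sqle, which oxidises squalene, was at 3.79, 3.88 and 3.87 against 6.05, 4.46 and 5.41 (log2 fold change 1.46, limma adjusted p = 0.0407). In both the doxycycline libraries stood apart from the others, with replicate 2 nearest to them. Msmo1, Nsdhl and Ebp, which act on later sterol intermediates, rose by 1.56, 0.91 and 0.50. In replicates 1, 2 and 3 the median enzyme stood 1.14, 0.21 and 0.75 log2 units above the level without the drug. Fdps and Lss had groups without overlap and did not pass, with Fdps at 4.67, 2.95 and 4.25 against 2.66 to 2.90. The number of enzymes that rose was 0, 1 and 0 without Rag_SPIC_noDOX replicates 1, 2 and 3, and 7, 16 and 0 without Rag_SPIC_DOX replicates 1, 2 and 3. In the same 6 fits 1, 3, 1, 4, 6 and 2 genes of sterol regulation rose.

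The 1 gene of sterol regulation and transport that fell was Abcg1. Abcg1, a cholesterol exporter switched on by the oxysterol receptors LXR, fell from 7.44, 7.46 and 7.42 log2 CPM to 6.32, 6.79 and 6.64 (log2 fold change -0.86, limma adjusted p = 0.0104). Abca1, its partner in export, was at 3.81, 4.97 and 4.26 against 5.20 to 5.38, without overlap, and did not pass (log2 fold change -0.97, limma adjusted p = 0.055). Mylip, a ubiquitin ligase that LXR also switches on, had a log2 fold change of -0.53 and did not pass (limma adjusted p = 0.0502).

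**Figure D4:**
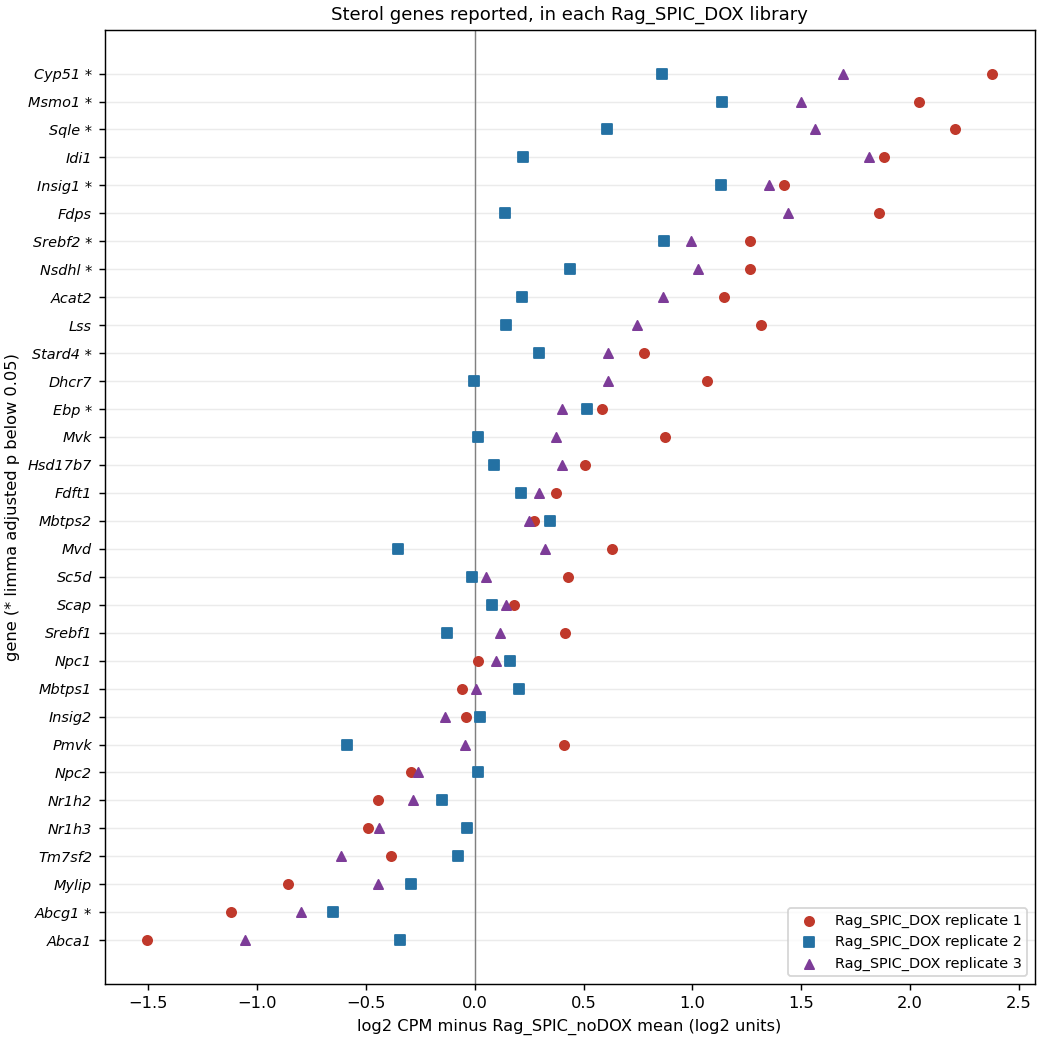
Difference of each doxycycline library from the mean of the libraries without the drug (horizontal axis, log2 units) for the genes of sterol synthesis, regulation and transport reported here, with an asterisk for genes that changed. Insig1, Srebf2, Cyp51 and Msmo1 stand right of 0 in all 3 libraries, replicate 1 (circle) lies right of replicate 2 (square) for most enzymes, and Abcg1 and Abca1 lie left of 0.

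Fatty-acid genes were mixed. Of 15 genes of fatty-acid synthesis 3 rose and 1 fell, against 3.16% and 8.67% of all genes, with a median log2 fold change of 0.41. Acly, which supplies cytosolic acetyl-CoA, and the acyl-CoA synthetases Acsl3 and Acsl4 rose by 0.66, 0.83 and 0.46, and Acacb, the mitochondrial acetyl-CoA carboxylase, fell by 0.81. Fasn, the fatty-acid synthase itself, did not pass (log2 fold change 0.13). Of 12 genes of fatty-acid oxidation 2 fell and 1 rose, against 8.67% and 3.16% of all genes. Cpt1a, the gate for fatty acids into mitochondria, went from 7.07, 6.88 and 6.96 log2 CPM to 5.97, 5.24 and 5.62 (log2 fold change -1.36, limma adjusted p = 0.00891). The synthesis genes that rose numbered 0 without any one of the Rag_SPIC_noDOX replicates, and 3, 10 and 0 without Rag_SPIC_DOX replicates 1, 2 and 3. Of the oxidation genes 0, 1 and 0 fell without Rag_SPIC_noDOX replicates 1, 2 and 3, and 2, 2 and 0 without Rag_SPIC_DOX replicates 1, 2 and 3.

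Targets of p53, the factor that answers DNA damage with arrest and cell death, were lower in part. Of 30 measured, 10 fell and 0 rose, against 8.67% and 3.16% of all genes, with a median log2 fold change of -0.33, and with unadjusted limma p below 0.05 the counts were 15 and 0. The medians in replicates 1, 2 and 3 were -0.43, -0.26 and -0.31. Besides Epha2 and Pmaip1, Mdm2, the ligase that destroys p53, fell by 0.87 from 8.87, 8.77 and 8.83 log2 CPM to 7.82, 8.07 and 7.98. The receptor Eda2r fell by 1.18. Cdkn1a, the cycle inhibitor p21, was at 8.80, 9.08 and 9.07 against 9.26 to 9.36 and did not pass (limma adjusted p = 0.0793). The number that fell was 1, 6 and 1 without Rag_SPIC_noDOX replicates 1, 2 and 3, and 13, 16 and 3 without Rag_SPIC_DOX replicates 1, 2 and 3.

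Interferon-inducible genes included many that fell. Of 26 measured, 11 fell and 0 rose, against 8.67% and 3.16% of all genes, with a median log2 fold change of -0.32 and library medians of -0.48, -0.30 and -0.37. At an unadjusted limma p below 0.05 there were 14 lower and 1 higher. Beside Gbp4, its relative Gbp8 fell by 1.58, the nucleic-acid sensor Zbp1 by 0.99 and the ubiquitin-like modifier Isg15 by 0.88. Of the transcription factors of the pathway Irf1 was at 6.69, 6.52 and 6.63 log2 CPM without and 6.11, 6.45 and 6.38 with doxycycline, and Irf1, Irf7, Irf9 and Stat2 did not pass. The number that fell was 1, 2 and 1 without Rag_SPIC_noDOX replicates 1, 2 and 3, and 11, 14 and 2 without Rag_SPIC_DOX replicates 1, 2 and 3.

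Immediate-early genes, which answer growth factor and stress signals within minutes, showed 6 of 23 lower and 0 higher, against 8.67% and 3.16% of all genes, with a median of -0.36, and 12 and 0 at an unadjusted limma p below 0.05. Dusp1, a phosphatase that switches off MAP kinases, went from 5.15, 4.83 and 4.95 log2 CPM to 2.92, 2.99 and 3.14 (log2 fold change -1.97, SE 0.12, limma adjusted p = 0.00163), with tight and distant groups. Fos, a subunit of the AP-1 factor, fell by 2.37 from 2.07, 1.43 and 1.58 to -0.49, -1.08 and -0.48. The stress factor Atf3 fell by 1.15, and Jun, the partner of FOS, by 0.51. Others differed among the doxycycline libraries. Dusp6, a feedback target of ERK signalling, was at 6.61, 4.11 and 5.77 against 5.16 to 5.42, and Egr1 at 5.17, 3.49 and 4.47 against 4.98 to 5.30. The number that fell was 1, 2 and 1 without Rag_SPIC_noDOX replicates 1, 2 and 3, and 10, 10 and 1 without Rag_SPIC_DOX replicates 1, 2 and 3. Without Rag_SPIC_DOX replicate 2, 3 immediate-early genes rose.

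Histone genes were low in every doxycycline library. Of 12 replication and linker histone genes measured, 7 fell and 0 rose, against 8.67% and 3.16% of all genes, and 11 and 0 had an unadjusted limma p below 0.05. All 12 had a negative difference in each of the 3 libraries, with medians of -1.62, -1.13 and -1.52. Hist1h1c, a linker histone that folds nucleosome arrays, went from 6.79, 6.84 and 6.87 log2 CPM to 5.33, 5.95 and 5.73, a fall of 1.16. Hist1h2bc, a core H2B gene, went from 5.30, 4.89 and 5.14 to 2.93, 3.46 and 3.15, a fall of 1.93. The linker genes Hist1h1a and Hist1h1b, at under 2 log2 CPM in all 6 libraries, fell by 2.59 and 2.21. Most replication histone transcripts lack a poly(A) tail, and the labels name total RNA and TruSeq libraries without saying how transcripts were selected. The number of histone genes that fell was 0, 4 and 0 without Rag_SPIC_noDOX replicates 1, 2 and 3, and 7, 10 and 3 without Rag_SPIC_DOX replicates 1, 2 and 3.

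Splicing genes and NF-kB targets had smaller median shifts. Of 25 splicing factors and their kinases 7 fell and 0 rose, against 8.67% and 3.16% of all genes, 13 and 1 at an unadjusted limma p below 0.05, with a median of -0.28. The kinases Clk1, Clk4 and Clk2, which phosphorylate SR proteins, fell by 0.76, 0.55 and 0.43, and the splicing regulator Tra2a by 0.50. Of 22 NF-kB targets 6 fell and 0 rose, against 8.67% and 3.16% of all genes, 8 and 1 at an unadjusted limma p below 0.05, with a median of -0.20. Map3k8, a kinase upstream of ERK, fell by 1.13, the adhesion molecule Icam1 by 0.79, the adaptor Traf1 by 0.74 and the hyaluronan receptor Cd44 by 0.64. Lta, which encodes lymphotoxin, was at 8.83, 0.51 and 7.57 log2 CPM with doxycycline against 1.29 to 1.45, and the cytokine Tnf and the chemokine Ccl3 had the same order, with replicates 1 and 3 above and replicate 2 below all libraries without the drug. Without Rag_SPIC_noDOX replicates 1, 2 and 3, 0, 3 and 0 splicing genes and 0, 2 and 0 NF-kB targets fell. Without Rag_SPIC_DOX replicates 1, 2 and 3 these counts were 9, 11 and 0 and 7, 10 and 1. Without Rag_SPIC_DOX replicate 1, 1 NF-kB target rose, and without Rag_SPIC_DOX replicate 2, 8 NF-kB targets and 1 splicing gene rose. In this last fit 2309 of all 11551 genes rose and 2260 fell.

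Genes that PU.1 or SPIB are known to drive were divided. Of 24 measured, 5 fell and 1 rose, against 8.67% and 3.16% of all genes, with a median log2 fold change of -0.09. Those that fell, other than Spib, were Fcrla, an Fc-receptor-like protein of B cells (by 1.10), Fcgr2b, the inhibitory Fc receptor (by 0.83), Bcl6, a repressor of germinal-centre and pre-B cells (by 0.63), and Csf2ra, a chain of the GM-CSF receptor (by 0.62). Fcgr2b was at 6.76, 6.55 and 6.71 log2 CPM without doxycycline and at 5.99, 5.79 and 5.74 with it, with no overlap. Btk, the kinase of pre-B-cell receptor signalling, rose by 0.33 from 6.47, 6.52 and 6.51 to 6.83, 6.77 and 6.88. Il7r, the receptor for the growth factor of pre-B cells, and Syk and Blnk, which carry the pre-B-cell receptor signal, did not pass. Of 18 ETS-family genes, Spic rose, Spib and Ets2 fell (Ets2 by 0.45), and the other 15 did not pass. Without Rag_SPIC_noDOX replicates 1, 2 and 3, 0, 3 and 0 of the PU.1 and SPIB targets fell, and without Rag_SPIC_DOX replicates 1, 2 and 3, 6, 10 and 1. The targets that rose numbered 0, 0 and 0 in the first 3 of these fits and 2, 8 and 0 in the others. The fit without Rag_SPIC_DOX replicate 2 called 2309 of all 11551 genes higher and 2260 lower. Of the ETS genes 0, 1 and 0 fell and 0, 1 and 1 rose in the 3 fits without a Rag_SPIC_noDOX replicate. In those without a Rag_SPIC_DOX replicate 2, 4 and 1 fell and 2, 2 and 1 rose.

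Pre-B-cell receptor signalling had 4 of 33 genes lower and 1 higher, against 8.67% and 3.16% of all genes, with a median of 0.02, shares near those of all genes. Zap70, a kinase related to SYK, went from 3.38, 3.21 and 3.42 log2 CPM to 2.01, 2.09 and 2.0 (log2 fold change -1.30, limma adjusted p = 0.00607), and the SRC-family kinase Blk fell by 0.79. The co-receptor Cd72 fell by 0.53. The surrogate light chain genes Igll1, Vpreb1 and Vpreb2 and the signal chains Cd79a and Cd79b did not pass. Of 22 genes of the light-chain stage, at which pre-B cells leave the cycle and rearrange their light-chain loci, 1 rose and 1 fell. Id3, an inhibitor of E proteins, was at 5.88, 5.96 and 5.96 without doxycycline and at 6.35, 6.71 and 6.51 with it (log2 fold change 0.59, limma adjusted p = 0.0163). Dntt, the polymerase that adds N nucleotides, went from 7.38, 7.49 and 7.42 to 6.40, 7.02 and 6.84, a fall of 0.68.  Without Rag_SPIC_noDOX replicates 1, 2 and 3, 0, 2 and 0 signalling genes fell, and without Rag_SPIC_DOX replicates 1, 2 and 3, 5, 10 and 1. The signalling genes that rose numbered 0, 0 and 0, and 2, 8 and 0, in the same order. Id3 and Dntt did not pass without any one of the Rag_SPIC_noDOX replicates or without Rag_SPIC_DOX replicate 3, when 0 genes of the light-chain list did. Without Rag_SPIC_DOX replicates 1 and 2 that list had 3 and 2 higher and 1 and 7 lower genes. All genes, 11551 in number, had 500 and 2309 higher and 1137 and 2260 lower in these 2 fits.

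Heme and iron genes, for which SPIC is known in macrophages, had 4 of 27 lower and 0 higher, against 8.67% and 3.16% of all genes, with a median of 0.16. At an unadjusted limma p below 0.05 there were 5 lower and 5 higher, where 3953 of all 11551 genes passed in either direction. Slc40a1, which encodes the iron exporter ferroportin, was low throughout, at 1.59, 1.02 and 1.32 log2 CPM without doxycycline and -0.89, -0.71 and -0.48 with it, a fall of 2.0 (limma adjusted p = 0.00905). Slc25a37, the mitochondrial iron importer, fell by 0.74, and the heme-pathway enzymes Ppox and Blvrb by 0.63 and 0.48. Hmox1, the enzyme that breaks down heme, was at 4.11, 0.41 and 2.86 against 0.50 to 0.91. Replicates 1 and 3 lay above that range and replicate 2 below it, and Hmox1 did not pass (limma adjusted p = 0.181). Of 10 NRF2 targets, which answer oxidative stress, Gclm rose by 0.57 and 0 fell, with 8 higher without Rag_SPIC_DOX replicate 2 and 0 without Rag_SPIC_DOX replicate 3 or any one of the Rag_SPIC_noDOX replicates. Without Rag_SPIC_noDOX replicates 1, 2 and 3, 0, 3 and 0 heme and iron genes fell, and without Rag_SPIC_DOX replicates 1, 2 and 3, 5, 6 and 1. Of the heme and iron genes 7 rose without Rag_SPIC_DOX replicate 2, and 0 in the other 5 fits. Among all 11551 genes, 2309 rose and 2260 fell without Rag_SPIC_DOX replicate 2.

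Genes of quiescence that FOXO factors switch on had 2 of 20 lower and 0 higher, shares near the 8.67% and 3.16% of all genes, with a median of -0.15 and 7 lower and 1 higher at an unadjusted limma p below 0.05. Besides Arrdc3, its relative Txnip, which restrains glucose uptake, went from 8.93, 8.77 and 8.82 log2 CPM to 7.89, 7.40 and 7.65 (log2 fold change -1.19, limma adjusted p = 0.0064). Without Rag_SPIC_noDOX replicates 1, 2 and 3, 1, 2 and 1 genes of the list fell, and without Rag_SPIC_DOX replicates 1, 2 and 3, 2, 8 and 2. In the fit without Rag_SPIC_DOX replicate 2, 1 gene of the list rose, and of all 11551 genes 2309 rose and 2260 fell. Foxo1 and Foxo3 themselves did not pass, nor did Cdkn1b, the cycle inhibitor p27. Of 11 BCL2-family genes Pmaip1 fell and 0 rose, shares near the 8.67% and 3.16% of all genes. The other 10 did not pass, among them Bcl2l11, the gene of BIM, at 8.55, 8.70 and 8.66 against 8.78 to 8.90.

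Growth genes showed the split between the doxycycline libraries as whole lists. Of 22 MYC targets of growth, limma called 0 higher and 0 lower, 6 and 0 at an unadjusted p below 0.05. Their medians were 1.37, -0.20 and 0.77 log2 units in replicates 1, 2 and 3, with 22, 6 and 19 members above the level without the drug. Library medians of lists were taken without centring, and none over all genes is set beside them. The order was not particular to these lists. Of 619 genes with at least 50 reads and over 1 log2 unit between replicates 1 and 2, 609 were higher in replicate 1. Srm, which makes spermidine, was at 6.91, 1.77 and 5.71 log2 CPM against 2.19 to 2.52. Ncl, a protein of the nucleolus, was at 10.68, 9.46 and 10.20 against 9.35 to 9.42. Without Rag_SPIC_DOX replicate 2, 19 of the 22 were higher and 0 lower, and in the other 5 leave-one-out fits 0 were higher. Of the 11 genes of the MYC and MAX network, which hold MYC's partners and rivals at DNA, 0 rose and 1 fell. These shares were near the 3.16% and 8.67% of all genes. The gene that fell was Mlxip, a partner of MLX that senses glucose. It went from 9.91, 9.62 and 9.79 log2 CPM to 8.73, 9.18 and 8.87, a fall of 0.85 (limma adjusted p = 0.0151). In that list 1 gene fell without Rag_SPIC_noDOX replicate 2, 1 rose and 1 fell without Rag_SPIC_DOX replicate 1, 3 rose and 2 fell without Rag_SPIC_DOX replicate 2, and 0 were called without Rag_SPIC_noDOX replicate 1 or 3 or Rag_SPIC_DOX replicate 3.

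**Figure D5:**
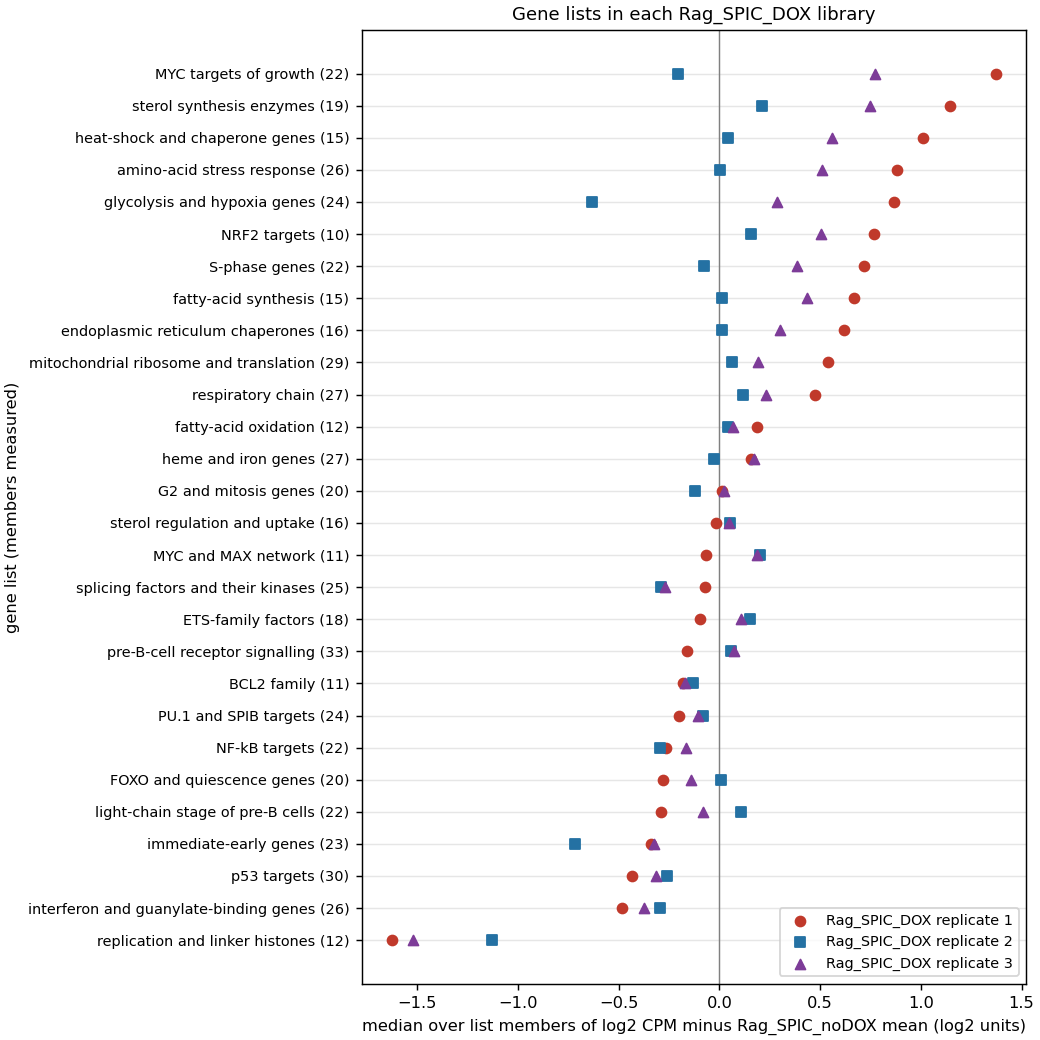
Median over the measured members of each gene list (number in brackets) of log2 CPM minus the mean without doxycycline (horizontal axis, log2 units), for each doxycycline library. The lists at the top are spread from replicate 2 (square) through replicate 3 (triangle) to replicate 1 (circle), the MYC targets from -0.20 to 1.37, while the histone, interferon and p53 lists at the bottom lie left of 0 in all 3 libraries.

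The same order held for glycolysis and hypoxia genes, with medians of 0.87, -0.63 and 0.28 over 24 genes. In replicate 2, 1 of the 24 lay above the level without the drug, against 23 in replicate 1 and 19 in replicate 3. Limma called 1 gene higher and 0 lower, against 3.16% and 8.67% of all genes. The gene called was Hif1a, the oxygen-sensing factor, which rose by 0.41. The glucose transporter Slc2a1 was at 7.17, 4.81 and 6.27 log2 CPM against 4.91 to 5.07, and hexokinase Hk2 at 7.11, 3.83 and 6.01 against 4.27 to 4.64. Slc16a3, a lactate exporter, spanned 6.93, 0.15 and 5.76 against 2.59 to 2.94. Without Rag_SPIC_DOX replicate 2 limma called 13 of the 24 higher and 1 lower.

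For 22 S-phase genes the medians were 0.72, -0.07 and 0.39, and limma called 0 in either direction, with 7 higher and 0 lower at an unadjusted p below 0.05. Mcm2, a subunit of the replicative helicase, was at 7.98, 6.52 and 7.40 log2 CPM against 6.48 to 6.59, and Ccne1, a cyclin of S-phase entry, at 5.12, 2.59 and 3.95 against 2.66 to 3.09. Without Rag_SPIC_DOX replicate 2, 17 of the 22 were higher. G2 and mitosis genes had medians of 0.01, -0.12 and 0.02. Of 20 such genes 2 fell and 0 rose, shares near the 8.67% and 3.16% of all genes, with 5 and 0 at an unadjusted limma p below 0.05. Cenpe, a kinetochore motor, and Mki67, the proliferation antigen Ki-67, fell by 0.51 and 0.47. Without Rag_SPIC_noDOX replicates 1, 2 and 3, 0, 1 and 0 of the G2 and mitosis genes fell, and without Rag_SPIC_DOX replicates 1, 2 and 3, 3, 2 and 0.

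Stress and biosynthesis lists had the same order, replicate 1 above replicate 3 above replicate 2, with replicate 2 near 0. The medians were 0.88, 0.00 and 0.51 for 26 genes of the amino-acid stress response, 1.01, 0.04 and 0.56 for 15 heat-shock and chaperone genes, and 0.62, 0.01 and 0.30 for 16 chaperones of the endoplasmic reticulum. Asns, which makes asparagine, was at 6.75, 5.29 and 6.21 log2 CPM against 4.99 to 5.20, a difference without overlap that did not pass (limma adjusted p = 0.0793). Ddit3, the stress factor CHOP, went the other way and fell by 0.48, at 4.95, 5.08 and 4.99 against 5.40 to 5.55. Among heat-shock genes Dnajb1, a co-chaperone, rose by 0.26 and Hspa1b, an inducible HSP70, fell by 0.79. Limma called 0 endoplasmic reticulum chaperones in either direction, 5 higher and 0 lower at an unadjusted p below 0.05. Of 29 genes of mitochondrial translation 3 rose and 0 fell, against 3.16% and 8.67% of all genes. Lrpprc, which stabilises mitochondrial transcripts, was at 6.84, 6.05 and 6.39 against 5.61 to 5.72. Of 27 respiratory-chain genes 2 rose and 0 fell, against the same shares of all genes, Sdhc of complex II by 0.37 and Uqcrc2 of complex III by 0.36. Without Rag_SPIC_DOX replicate 2 these 5 lists had 17, 13, 12, 15 and 15 higher genes, in a fit that called 2309 of all 11551 genes higher. Without any one of the Rag_SPIC_noDOX replicates or without Rag_SPIC_DOX replicate 3 the 5 lists had 0 higher genes.

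Markers of other blood cells were checked beside these results. Of all genes 3.16% were called higher and 8.67% lower, the shares to set beside the marker counts that follow. Of 16 myeloid markers 9 were measured and their summed level was 344.7 to 354.9 CPM without doxycycline and 249.7 to 320.5 CPM with it. Cd14, an endotoxin co-receptor, was the 1 myeloid marker that rose (limma adjusted p = 0.0431), on 69, 4 and 38 reads against 1, 0 and 1. Of 14 T-cell and NK markers 7 were measured, limma called 0 (0 higher and 2 lower at an unadjusted p below 0.05), and the sum was 103.5 to 110.6 CPM without and 108.7 to 144.4 CPM with doxycycline. Cd5, carried by T cells and some B cells, was at 5.65, -1.56 and 4.50 log2 CPM with doxycycline against -0.02 to 0.38. The 6 erythroid and megakaryocyte markers and 7 plasma-cell markers measured had 2 and 1 lower and 0 higher genes, Itgb3 (by 0.65), Car2 (by 0.34) and Mzb1 (by 0.40). Of the B-cell progenitor markers 3 fell, among them Dntt and Bst1, and 0 rose, and their sum was 10170 to 10690 CPM without doxycycline and 8525, 12250 and 10380 CPM in replicates 1, 2 and 3. Without any one of the Rag_SPIC_noDOX replicates, or without Rag_SPIC_DOX replicate 3, 0 markers of these 5 lists passed. Without Rag_SPIC_DOX replicate 2 there were 4 higher and 2 lower myeloid, 2 higher and 1 lower T-cell and NK, 1 higher and 2 lower erythroid and megakaryocyte, 1 higher and 4 lower plasma-cell, and 0 higher and 7 lower B-cell progenitor markers. Without Rag_SPIC_DOX replicate 1 these were 0 and 0, 1 and 0, 0 and 2, 1 and 2, and 2 and 3. Of all 11551 genes, 2309 were higher and 2260 lower without Rag_SPIC_DOX replicate 2, and 500 and 1137 without Rag_SPIC_DOX replicate 1. What part other cells had in the split between the doxycycline libraries was not tested.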

How the data were processed

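RNA sequencing libraries of Rag_SPIC_DOX and Rag_SPIC_noDOX were compared, 3 of each. The submitters' processing notes name Subread, featureCounts 1.4.5, edgeR, limma and the mouse build mm9, with no role or order. The authors deposited log2 CPM values of all 15 libraries in 4 tables, each listing only the genes called in 1 of their comparisons. Per the file headers the tables also hold the authors' own fold changes and p-values, which were not used. The deposited log2 values of a gene were the same in every table (largest difference 0), and the tables' union, 1 row per identifier, held 11551 genes. Genes in none of the tables were not analysed here, so every share is of this union. The union was selected by calls made partly on the libraries compared here. Shares and adjusted p-values are therefore not those of an unselected set of genes. Values below 1000 reads returned to whole reads within 0.05 reads for 100% of values in each library, with 0.5 reads added, and the read numbers given come from this. In all 18 symbols turned into dates were restored from gene identifiers, and 3 symbols belong to more than 1 identifier. One column name for Art replicate 3 differed by 1 character from its label.

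The 6 libraries were fitted with limma 3.58.1 in R 4.3.3, with a mean-variance trend and Benjamini-Hochberg adjustment over 11551 genes, two-sided, changed meaning an adjusted p below 0.05. Fold changes are differences of mean log2 CPM and understate those of genes with few reads. An exact permutation test of 3 against 3 cannot go below 0.1 and was not used. The fit was checked on artificial data with known changes. At the lowest depth, 3 reads in a library of 17.8 M is the level under which a gene was not told from 0. The members and lists were chosen with earlier results of these data known. The 33 gene lists hold 638 genes from general knowledge, 583 of them measured, and are described by counts and medians. Named genes were Spic, Spi1, Spib, Bclaf1, Rag1 and Rag2, the 10 higher and 10 lower changed genes above median expression (5.16 log2 CPM) with the largest shift in the nearest doxycycline library, the 10 such genes with the widest range over the doxycycline libraries, and list members (up to 4 in each direction by size, and others for their role). Alternatives were all 15 libraries in 1 fit, library weights, the replicate number as a block, centring on library medians, 2 reads added, a minimum mean of 1 log2 CPM, no trend, and leaving out each library. Promoters are RefSeq's for GRCm38.p6, another build than the files' mm9, and were matched by gene symbol only. Some listed genes are counted but not reported by name here.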

Additional observations from a re-analysis of the deposited data

Results flagged for a closer look

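Spic was also high in 2 groups outside the comparison, above every library without doxycycline. In the libraries labelled Rag_SPIC_DOX_shBCLAF1, which by their labels add a short hairpin RNA against BCLAF1 to the construct and the drug, its mean was 7.46 log2 CPM (SD 0.04, n = 3, range 7.43 to 7.50), against 4.21 (SD 0.44) with doxycycline alone. In the libraries labelled Art_shBCLAF1 its mean was 4.54 (SD 0.24, range 4.34 to 4.80), close to the doxycycline libraries, against 0.44 (SD 0.36) in Art. The transcript of the hairpin's target was not lower under either label. Bclaf1 stood at 7.99, 8.05 and 8.10 log2 CPM in Rag_SPIC_DOX_shBCLAF1 against a mean of 7.73 (SD 0.04) in Rag_SPIC_DOX, and at 8.29, 8.35 and 8.32 in Art_shBCLAF1 against 7.81, 7.75 and 6.41 in Art. These differences were not tested.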

How the results depend on the processing

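Single libraries set the number of calls. Leaving out each library in turn gave 12 to 4569 changed genes, 1 to 2309 higher and 11 to 2260 lower. Genes without overlap numbered 5040 to 7380 of 11551 in these fits, against 4704 with all 6 libraries. Leaving out a library can only keep or raise that count, so its rise tells nothing about single libraries. Library weights gave 8589 changed, 4194 higher and 4395 lower, with a weight of 81.1 for Rag_SPIC_DOX replicate 3 and 0.122 and 0.124 for the other two. With the replicate number as a block there were 150 changed, 5 higher and 145 lower. Deviations of same-numbered libraries correlated at 0.0275, 0.0697 and -0.0386, and 2 of 6 libraries correlated best with their own number, so the numbers were not taken as pairs. Centred libraries gave 194 higher, and no mean-variance trend 157 higher. All 15 libraries in 1 fit gave 1160 changed. Genes more than 1 log2 unit higher in replicate 2 numbered 14 with 2 reads added and 6 with a mean above 1 log2 CPM. Under that minimum 278, 238 and 241 genes were lower in replicates 1, 2 and 3, and 172 higher in replicate 3. The log2 fold change of Spi1 was 0.0021 with library weights, 0.0056 without Rag_SPIC_noDOX replicate 2, and -0.0887 to 0.0056 over all omissions. That of Bclaf1 was -0.0253 in centred libraries, -0.0062 without Rag_SPIC_noDOX replicate 1, and -0.0062 to 0.0622 over all omissions. The 20 genes listed as most shifted kept their sign throughout. They were chosen with groups that did not overlap, so no omission of a library could have reversed a sign, and the kept sign is no support. Under the block 1 of the 10 higher and all 10 lower ones still passed. The cause of these moves was not tested. With 3 libraries a group and effective sizes of 17.8 to 23.2 M reads, genes under 3 reads could not be told from 0.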

Other observations

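The gap between the doxycycline libraries had a regular form. Of 619 genes with at least 50 reads that lay 1 log2 unit or more apart between replicates 1 and 2, 609 were higher in replicate 1. On the linear CPM scale replicate 3 lay at a median of 0.422 of the way from replicate 2 to replicate 1, with the 5th and 95th percentiles at 0.277 and 0.561, and between them for 618 of the 619. Over all genes replicate 3 lay between the other two for 63.7%, against 24.8%, 28.8% and 46.4% for replicates 1, 2 and 3 without doxycycline. These genes were chosen for the difference between replicates 1 and 2, and the position of replicate 3 is given with no test.

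The level of Spic ran in the reverse of the order of Myc, with replicate 3 (4.31 log2 CPM) between replicates 1 and 2. Spic was lowest in replicate 1 (3.72 log2 CPM), where Myc was highest (8.06), and highest in replicate 2 (4.59), where Myc was lowest (3.76). With 3 libraries no relation between them can be tested. Outside the comparison both genes were high together. Means in Rag_SPIC_DOX_shBCLAF1 were 7.46 log2 CPM for Spic and 9.21 for Myc. In Art_shBCLAF1 they were 4.54 and 8.79, against 0.44 and 4.07 in Art. A relation across groups was not tested.

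Tigit, an inhibitory receptor known from T and NK cells, was chosen after its values were seen. It had 0 reads in each library without doxycycline and 24, 4 and 13 reads in replicates 1, 2 and 3 with it, at least 6.14-, 1.07- and 3.58-fold higher than a floor of 3 reads per library (limma adjusted p = 0.0151). Hbb-bt, a beta-globin gene, was at 2.47, -2.66 and 1.42 log2 CPM with doxycycline against -2.85 to -1.69 without it, and Etv5, an ETS factor downstream of ERK, at 6.24, 1.35 and 4.97 against 3.12 to 3.32, both in the order of Myc. The value of Hbb-bt in replicate 2 and its lowest value without doxycycline lie near the floor of 3 reads.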
